A study of Mus musculus with 14 samples.

Results

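Primordial germ cells (PGCs) of mouse embryos at 11.5 days post coitum were compared with epiblast stem cells (EpiSC), that is, the germline with cells of the primed epiblast. The arrays were chosen by sample title, as PGC11.5 (2 arrays, replicates 1 and 2) against EpiT9 and EpiE3 (1 array each), which makes 4 of the 14 arrays of the series. The series asks how hypoxia, HIF1a and Oct4 bear on the pluripotency of PGCs, and its other arrays hold embryonic germ, hypoxia-derived germ-like and embryonic stem cells. All 4 arrays carry RNA of C57BL background from cells labelled as not cultured in hypoxia, and no genetic change or drug is given for any of them. The PGCs are labelled unipotent. The labels do not say how they were isolated, how pure they were, or how many embryos were pooled. EpiT9 and EpiE3 are different lines, so the spread between EpiSC arrays holds the difference between lines. Nothing in the labels places the PGC11.5 arrays in separate isolations, so a p-value here speaks only to the variation among these 4 arrays, part or all of which may be technical.

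PGCs are set aside from the epiblast before gastrulation is complete, migrate to the genital ridges and then erase DNA methylation across the genome, imprints included. Around their arrival they switch on genes of the germ granule, of the piRNA pathway (small RNAs that silence transposons) and of meiosis, whose promoters are methylated in somatic tissue. They keep Oct4 (Pou5f1) and other pluripotency factors although they do not self-renew as a pluripotent line in the embryo. EpiSC are self-renewing lines from the post-implantation epiblast that depend on Nodal/Activin and FGF signalling and stand in the primed state, in contrast to the naive state of embryonic stem cells.

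Each array gave an unlogged signal and a detection p-value for 25697 probes. Between 29.8% and 34.2% of probes were detected (detection p under 0.01) on the PGC11.5 arrays, against 42.0% to 45.4% on the EpiSC arrays, and the mean signal was 115 and 185 on the PGC11.5 arrays, against 324 and 317 on the EpiSC arrays. The normalized value of the dimmest detected probe was higher on the PGC11.5 arrays, at 6.08 and 5.63 on the log2 scale, than on the EpiSC arrays, at 4.86 and 5.04. Levels below are normalized log2 intensities of 1 probe per gene, and they are compared only between arrays, never between genes. The PGC11.5 arrays correlated with each other at r = 0.950 across the 7535 genes tested and the EpiSC arrays at 0.961, while pairs across the groups gave 0.806 to 0.821. These are correlations across genes, which are not independent replicates. The PGC11.5 replicate 1 array stood apart from replicate 2 in genes of red blood cells: the summed normalized intensity of 13 erythroid genes was 68198 on replicate 1 and 2427 on replicate 2, against 296 on EpiT9 and 314 on EpiE3. Some of the results that rest on this array, not all, are given with and without it.

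A gene was tested when its probe was detected on at least 2 of the 4 arrays, and called when its p-value from limma, adjusted by Benjamini-Hochberg over all 7535 genes tested, was under 0.05. Of the genes tested, 1059 were called higher in PGC11.5 than in EpiSC and 1273 lower, which is 30.9% in either direction, 14.1% higher and 16.9% lower. The median difference over all genes tested was -0.10, and in 70.3% of them the 2 groups did not overlap. Both PGC11.5 arrays stood at least 2-fold above both EpiSC arrays for 608 genes, of which 607 were called, and at least 2-fold below for 829, all of them called. Among the calls, 84 higher genes were detected on both PGC11.5 arrays and on neither EpiSC array, and 479 lower genes on both EpiSC arrays and on neither PGC11.5 array. These counts are unlike in their base: of all genes tested, 7180 were detected on both EpiSC arrays and 5186 on both PGC11.5 arrays. The PGC11.5 arrays also had the higher detection limit. The detection filter favours a difference in genes that passed it through 1 group alone, so the counts of gene groups below describe the genes that passed and are read beside these background shares. The count of calls depended on the arrays kept: without PGC11.5 replicate 1 it was 1382, without EpiT9 900, without EpiE3 1189 and without PGC11.5 replicate 2 it was 1831. With RNA of whole samples, fewer cells of a type and less RNA per cell cannot be told apart.

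Genes that mark early germ cells were high on both PGC11.5 arrays. Of 14 such genes with a probe, 11 were tested, 8 rose and 2 fell, with a median difference of 2.30. The share called was 90.9%, beside 30.9% of all genes tested. Dppa3, which encodes the Stella protein that shields the maternal genome from demethylation in the zygote, had a log2 level of 12.54 and 12.91 on the PGC11.5 arrays, against 5.62 on EpiT9 and 4.68 on EpiE3. It was detected on 1 of the EpiSC arrays, and it rose by a log2 difference of 7.58 (SE 0.36, limma adjusted p = 0.000214). Both germ cell arrays lay far above both EpiSC arrays, and the PGC11.5 arrays lay closer to each other than the lines did. Tfap2c, a transcription factor needed for PGC specification, stood at 11.34 and 11.37 in PGC11.5 and at 7.90 and 6.12 in EpiSC, a difference of 4.34 (SE 0.53, limma adjusted p = 0.00369) that its other probes gave as 4.05 and 4.34. Dnd1, an RNA-binding protein required for germ cell survival, stood at 11.71 and 11.97 in PGC11.5 and at 8.06 and 6.47 in EpiSC, a difference of 4.58 (SE 0.49, limma adjusted p = 0.00244). For both genes the EpiSC lines differed from each other by more than 2-fold, with EpiT9 the higher, and neither line reached the germ cells.

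Nanos3, an RNA-binding protein that protects migrating PGCs from apoptosis, was at 8.40 and 8.04 in PGC11.5 and was not detected on either EpiSC array, where it read 4.45 and 4.43. It was at least 9.67-fold higher in PGC11.5 (limma adjusted p = 0.00164). Lower bounds of this kind set the bright group against the dimmest detected signal of the other arrays. Alpl, the tissue-nonspecific alkaline phosphatase used to stain PGCs, rose by 2.30 (SE 0.32, limma adjusted p = 0.00497), and Elavl2, an RNA-binding protein, by 2.54. Ifitm3 and Ifitm1, interferon-induced membrane proteins of early PGCs, rose by 2.07 and 2.14, with Ifitm3 already at 11.23 on EpiT9 and 9.14 on EpiE3. The call of Ifitm3 was lost without either PGC11.5 array (adjusted p = 0.13 and 0.0967) and with the mean of probes (0.0502), and that of Ifitm1 without EpiT9, EpiE3 or PGC11.5 replicate 2 (adjusted p = 0.0672, 0.145 and 0.062). The members that fell were Fgf8, a growth factor of the gastrulating embryo, by 4.78, and Lin28a, a repressor of let-7 processing, by 1.17. Cxcr4, the receptor that guides PGC migration, stood at 6.05 and 7.80 in PGC11.5 and at 6.38 and 5.28 in EpiSC, so the groups overlapped. Prdm1, a repressor that founds the germline, was detected on none of the 4 arrays, and Prdm14, its partner in specification, on 1 PGC11.5 array only, so neither was tested. Without PGC11.5 replicate 1 the list had 7 calls higher and 1 lower.

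**Figure D1:**
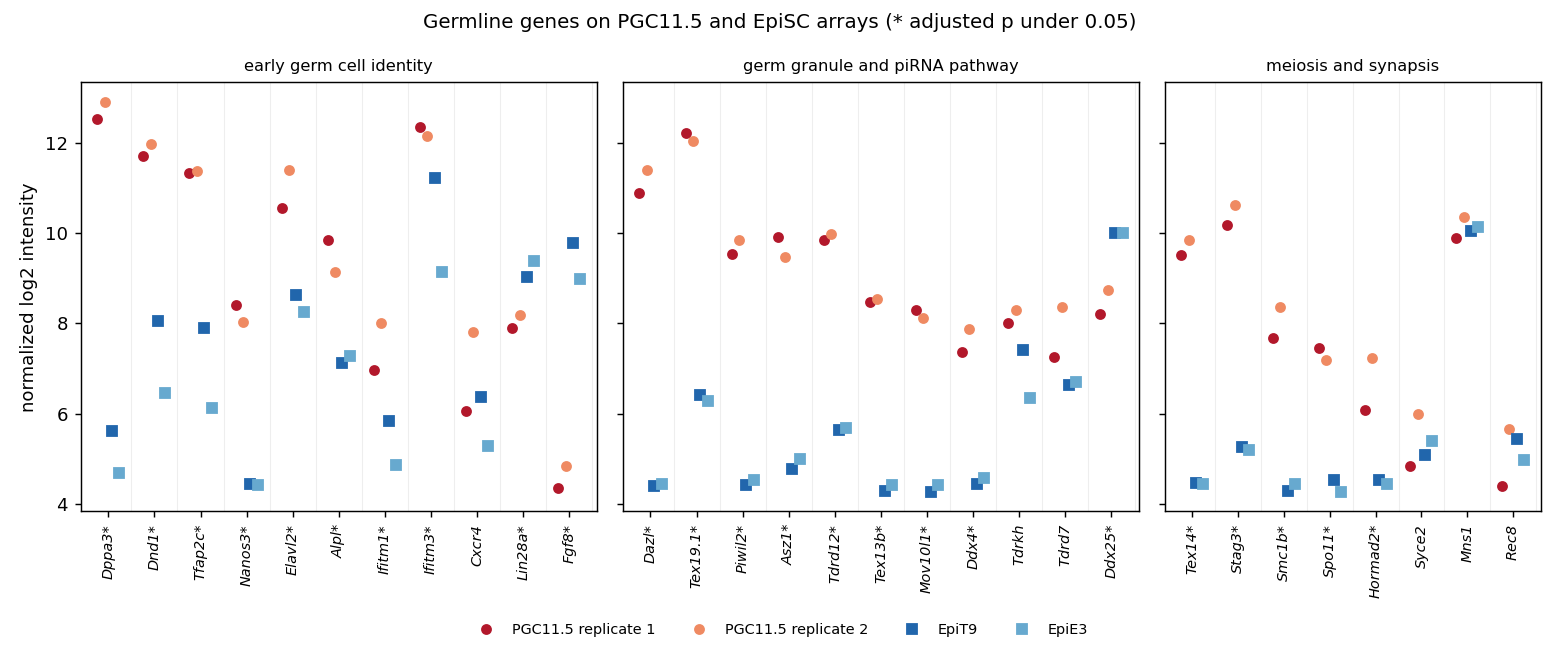
Normalized log2 intensity (vertical axis) of each tested gene of 3 germline lists on the PGC11.5 arrays (red circles) and the EpiSC arrays (blue squares), with genes ordered by their difference and called genes starred. Dppa3, Dazl and Tex14 show both red points far above both blue ones, while Fgf8 and Ddx25 show the reverse.

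Components of the germ granule and the piRNA pathway gave some of the largest rises. With 19 probes listed and 11 genes tested, 8 rose and 1 fell, and the median difference was 4.15. The share called was 81.8%, beside 30.9% of all genes tested. With no detection filter the median was 1.13. Dazl, an RNA-binding protein that commits PGCs to gametogenesis, stood at 10.89 and 11.40 in PGC11.5 and was not detected in EpiSC, at 4.40 and 4.45, which made it at least 73.3-fold higher (limma adjusted p = 0.000214). Tex19.1, which restrains retrotransposons in germ cells, was at 12.23 and 12.05 in PGC11.5, against 6.40 and 6.28 in EpiSC, a difference of 5.80 (SE 0.22, limma adjusted p = 0.00011). In both genes the replicates of each group lay close together and the groups were several log2 units apart. Piwil2, a PIWI protein that binds piRNAs, was at 9.53 and 9.84 in PGC11.5 and not detected in EpiSC, at 4.42 and 4.52, hence at least 26.6-fold higher (limma adjusted p = 0.00058). Asz1, which anchors the granules at mitochondria, was at least 26.8-fold higher. Tdrd12, a Tudor protein of the same pathway, rose by 4.26, and Mov10l1, the helicase that feeds precursors into it, was at least 9.64-fold higher. Ddx4 (mouse Vasa), the RNA helicase by which germ granules are usually recognised, stood at 7.37 and 7.88 in PGC11.5, against 4.44 and 4.57 in EpiSC, where it was not detected. It was at least 6.38-fold higher (SE of the log2 difference 0.37, limma adjusted p = 0.00333).

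The member that fell was Ddx25, a helicase known for its work in later spermatids, at 8.20 and 8.74 in PGC11.5, against 9.99 and 10.01 in EpiSC (difference -1.53, limma adjusted p = 0.00818). Tdrd7 and Tdrkh, both Tudor-domain proteins, read 1.13 and 1.28 log2 units higher and did not pass the test. Mael, a piRNA factor of later germ cells, was detected on none of the 4 arrays. Without PGC11.5 replicate 1, 9 genes of this list were called higher and 1 lower.

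A minority of meiotic genes was measurable. Of 25 with a probe only 8 were tested, 5 rose and none fell, with a median difference of 2.54. The share called was 62.5%, beside 30.9% of all genes tested. Of the 17 not tested, 15 were detected on no array. With no detection filter the median was 0.17. Stag3, a cohesin subunit specific to meiosis, stood at 10.18 and 10.62 in PGC11.5, against 5.25 and 5.19 in EpiSC, a difference of 5.18 (SE 0.31, limma adjusted p = 0.000432). Smc1b, another meiotic cohesin subunit, was at 7.68 and 8.36 in PGC11.5 and not detected in EpiSC, at 4.27 and 4.45, so that it was at least 8.39-fold higher (limma adjusted p = 0.00252). Both cohesin genes separated the groups on every array. Tex14, which builds the bridges between germ cells, was at least 26.7-fold higher, Spo11, the enzyme that makes meiotic DNA breaks, at least 5.18-fold higher, and Hormad2, a protein of unsynapsed chromosome axes, at least 3.25-fold higher, though the call of Hormad2 was lost without EpiT9 or EpiE3 (adjusted p = 0.0973 and 0.101). Stra8, the gene that gates entry into meiosis, and Sycp3, a protein of the chromosome axis, were detected on none of the 4 arrays. Mns1, which has a role in cilia as well as in meiosis, stood at 9.89 and 10.36 in PGC11.5 and at 10.05 and 10.13 in EpiSC, with the groups overlapping.

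Since germline genes of this kind are known to be held by methylation of CpG-rich promoters, the 180 bases before the annotated start of 4 of them are printed, together with those of Rhox5, a gene that rose with them. They are taken from RefSeq (GRCm38.p6), read 5′ to 3′ on the gene's strand, and CG dinucleotides are in capitals. Dazl lies at chr17:50293621-50293800 (minus strand), Ddx4 at chr13:112652311-112652490 (minus), Stag3 at chr5:138280329-138280508 (plus), Smc1b at chr15:85131958-85132137 (minus) and Rhox5 at chrX:37754428-37754607 (plus).
Dazl: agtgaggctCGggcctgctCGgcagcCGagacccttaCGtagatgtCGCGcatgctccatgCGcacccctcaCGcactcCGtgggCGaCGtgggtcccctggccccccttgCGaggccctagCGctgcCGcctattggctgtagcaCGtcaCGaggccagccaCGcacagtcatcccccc
Ddx4: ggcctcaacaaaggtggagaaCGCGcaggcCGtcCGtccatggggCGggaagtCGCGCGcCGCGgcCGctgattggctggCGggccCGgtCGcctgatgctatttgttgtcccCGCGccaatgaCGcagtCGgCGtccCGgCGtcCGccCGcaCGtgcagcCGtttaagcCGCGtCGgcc
Stag3: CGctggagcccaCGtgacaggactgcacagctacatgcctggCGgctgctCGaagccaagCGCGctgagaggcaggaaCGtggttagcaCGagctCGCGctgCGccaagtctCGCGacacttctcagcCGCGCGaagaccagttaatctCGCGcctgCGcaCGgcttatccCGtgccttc
Smc1b: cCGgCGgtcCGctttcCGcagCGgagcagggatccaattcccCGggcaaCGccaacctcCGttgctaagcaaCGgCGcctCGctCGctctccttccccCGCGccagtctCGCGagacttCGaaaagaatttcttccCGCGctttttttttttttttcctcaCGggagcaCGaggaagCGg
Rhox5: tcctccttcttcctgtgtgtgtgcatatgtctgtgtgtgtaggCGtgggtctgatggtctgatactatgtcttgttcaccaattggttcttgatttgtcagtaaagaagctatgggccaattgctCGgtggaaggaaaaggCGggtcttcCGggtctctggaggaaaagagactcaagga
Dazl holds 17 CG dinucleotides, Ddx4 28, Stag3 21, Smc1b 22 and Rhox5 4. The printed windows were picked after the counts were seen and are richer in CG, Rhox5 apart, than the group they come from. The 13 germ granule and meiosis genes called higher had 12 windows for 11 genes, with a median of 13.5 CG, against a median of 13 over the 8016 windows of all genes tested. CG density before the start did not set these genes apart from the rest of the array. The 18 primed epiblast genes called lower had a median of 7 over 17 windows, and the 16 glycolysis genes called lower 9 over 24. Genes called higher gave low medians too, with 6 over 5 windows for the 8 naive genes. The 8 early germ cell genes called higher had a median of 11 over 11 windows. No methylation was measured on these samples.

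The Rhox genes, a cluster of reproductive homeobox factors on the X chromosome, were among the highest rises. Rhox9 stood at 12.79 and 12.83 in PGC11.5 and was not detected in EpiSC, at 4.53 and 4.37, hence at least 233-fold higher (limma adjusted p = 6.49e-05). Rhox5 was at 12.25 and 12.71 in PGC11.5, against 5.97 and 5.60 in EpiSC, a difference of 6.69 (SE 0.27, limma adjusted p = 0.000139). Rhox6 was at least 36.9-fold higher. The other 5 Rhox genes with a probe were not tested, and Rhox1 was detected on 1 PGC11.5 array. Probes of such close paralogs can take up each other's RNA, which also holds for Tuba3a, a testis-type alpha-tubulin at least 112-fold higher in PGC11.5, and for the Ifitm and globin genes.

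Core pluripotency genes changed in both directions. Of 14 with a probe, 12 were tested, 2 rose and 3 fell, and the median difference was -0.03. The share called was 41.7%, beside 30.9% of all genes tested. Pou5f1 (Oct4), the factor that defines this network, stood at 12.19 and 12.11 in PGC11.5 and at 12.02 and 12.93 in EpiSC. The PGC11.5 arrays lay between the EpiSC lines, and the difference of -0.32 (SE 0.28, limma adjusted p = 0.409) was within the spread, as was the -0.02 of its other probe. Without EpiT9 the difference was -0.78 (limma adjusted p = 0.0316), and without EpiE3 it was 0.13. Sox2, its partner on DNA, stood at 9.37 and 8.78 in PGC11.5 and at 8.65 and 7.99 in EpiSC, a difference of 0.76 (SE 0.34, limma adjusted p = 0.129). The groups did not overlap, but replicate 2 lay only slightly above EpiT9. Nanog, the homeobox factor of the same network, was at 9.29 and 9.49 in PGC11.5, against 10.30 and 9.95 in EpiSC, and fell by 0.73 (SE 0.22, limma adjusted p = 0.0461). That call is marginal, since it was lost without each array in turn, with adjusted p between 0.0546 and 0.182.

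The other called members were Dppa4, Dppa5a, Tdgf1 and Lin28a. Dppa4, a nuclear protein of pluripotent and germ cells, stood at 12.84 and 12.88 in PGC11.5, against 6.30 and 5.93 in EpiSC, a difference of 6.75 (SE 0.22, limma adjusted p = 6.49e-05), with 3.89 from its other probe. Dppa5a, an RNA-binding protein of naive cells and PGCs, was at 14.04 and 14.02 in PGC11.5, against 9.68 and 8.23 in EpiSC, a difference of 5.08 (SE 0.42, limma adjusted p = 0.00115). Both rises left the groups far apart. Tdgf1 (Cripto), the co-receptor of Nodal, was not detected in PGC11.5, at 4.39 and 4.35, and stood at 6.37 and 7.71 in EpiSC, so it was at least 2.27-fold lower in PGC11.5 (limma adjusted p = 0.0114). Under scaling of the arrays in place of quantile normalization it read -0.89 and was not called (adjusted p = 0.248). Lin28a fell as given above, and its call was lost without PGC11.5 replicate 1, EpiT9 or EpiE3 (adjusted p between 0.0566 and 0.106). Utf1, a chromatin factor, stood at 11.10 and 11.27 in PGC11.5 and at 8.25 and 10.69 in EpiSC, where the lines differed by more than the groups.

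Genes of the naive state were higher in PGC11.5. Of 18 with a probe, 14 were tested, 8 rose and none fell, with a median difference of 2.20. The share called was 57.1%, beside 30.9% of all genes tested. With no detection filter the median was 1.15. Esrrb, an orphan nuclear receptor of the naive network, stood at 11.31 and 11.17 in PGC11.5, against 5.78 and 5.20 in EpiSC, a difference of 5.74 (SE 0.30, limma adjusted p = 0.000353). Tcl1, a co-activator of AKT kinase, was at 9.46 and 9.97 in PGC11.5 and not detected in EpiSC, at 4.36 and 4.34, which made it at least 27.3-fold higher (limma adjusted p = 0.000659). On each of these genes the groups were separated by more than 3 log2 units. Pecam1, an adhesion protein of naive cells, PGCs and endothelium, stood at 10.06 and 9.85 in PGC11.5, against 4.42 and 5.10 in EpiSC, where 1 array detected it, a difference of 5.19 with 3.54 from its other probe. Zfp42 (Rex1), a marker of naive cells, rose by 4.49, Fbxo15 by 3.24, and the transcription factors Klf5 by 2.81 and Klf2 by 1.58. The call of Klf2 was lost without EpiE3 or PGC11.5 replicate 1 (adjusted p = 0.0601 and 0.0919). Klf4, a further factor of the naive network, was not detected in PGC11.5, at 4.82 and 4.77, against 5.32 and 5.08 in EpiSC, and did not pass the test (difference -0.41, limma adjusted p = 0.341). Without PGC11.5 replicate 1 this list had 7 calls higher and 1 lower.

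**Figure D2:**
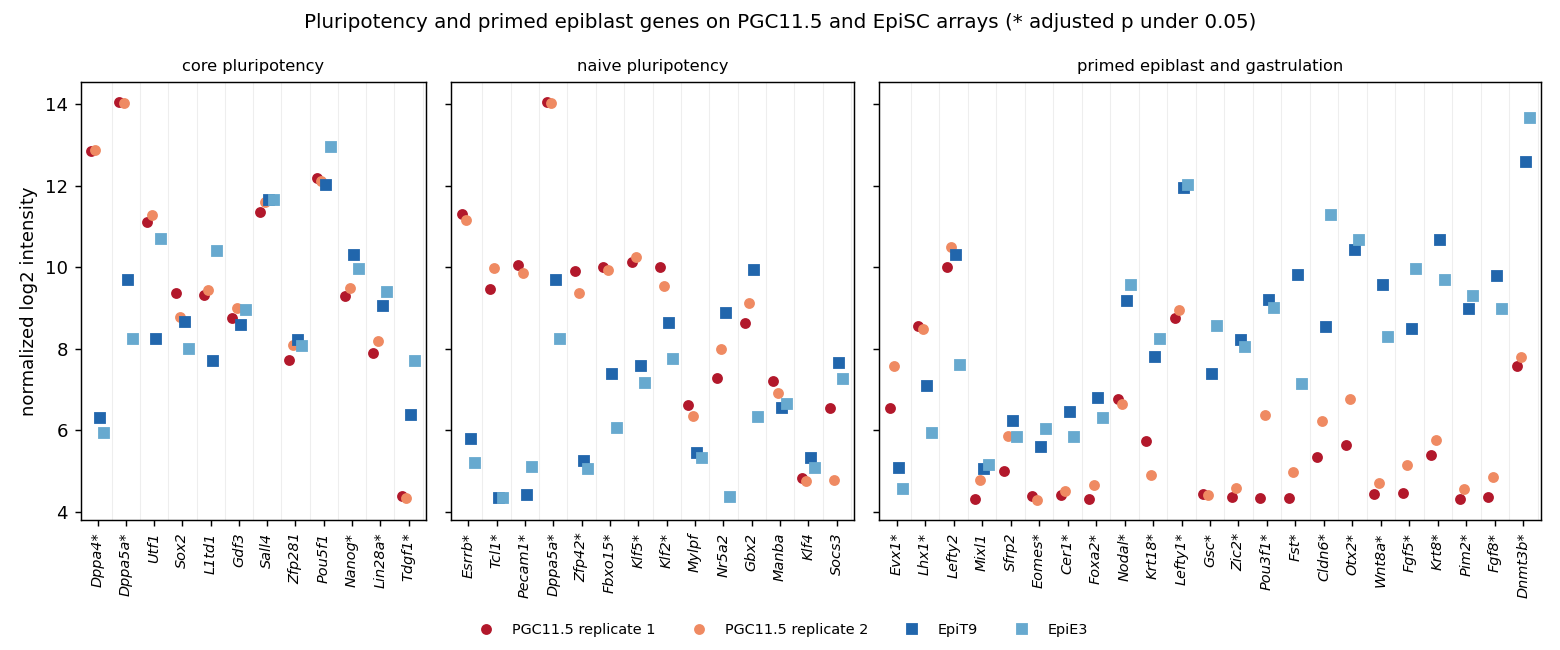
Normalized log2 intensity (vertical axis) of each tested gene of the core pluripotency, naive and primed lists on the PGC11.5 arrays (red circles) and the EpiSC arrays (blue squares), with called genes starred. The red points of Pou5f1 fall between the blue ones, those of Esrrb and Tcl1 stand above them, and those of most primed genes stand below.

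Genes of the primed epiblast and of gastrulation were lower in PGC11.5. Of 29 with a probe, 23 were tested, 18 fell and 2 rose, and the median difference was -3.55. The share called was 87.0%, beside 30.9% of all genes tested. Dnmt3b, the de novo DNA methyltransferase of the epiblast, stood at 7.58 and 7.81 in PGC11.5, against 12.57 and 13.64 in EpiSC, a difference of -5.41 (SE 0.35, limma adjusted p = 0.00058), with -3.01 from its other probe. Otx2, a homeobox factor that opposes germ cell fate in the epiblast, was at 5.65 and 6.76 in PGC11.5, where 1 array detected it, against 10.43 and 10.66 in EpiSC, a difference of -4.34 (SE 0.40, limma adjusted p = 0.00145). Fgf5, the growth factor by which the primed state is usually recognised, was not detected in PGC11.5, at 4.47 and 5.16, and stood at 8.47 and 9.96 in EpiSC, at least 10.3-fold lower in PGC11.5 (limma adjusted p = 0.00376). All 3 genes were low on both germ cell arrays and high in both lines.

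Pim2, a kinase, was at least 9.75-fold lower in PGC11.5, with -2.92 and -2.37 from its other probes, and Fgf8 at least 11.5-fold lower. Wnt8a, a ligand of the gastrula, was at least 8.46-fold lower and Gsc (goosecoid), a factor of the organizer, at least 4.36-fold lower. Pou3f1 (Oct6), a factor of the primed state, stood at 4.34 and 6.37 in PGC11.5, against 9.19 and 9.01 in EpiSC, a difference of -3.74 whose call was lost without EpiT9 or EpiE3 (adjusted p = 0.0672 and 0.0556). The keratin Krt8 fell by 4.60. The genes that rose were Evx1, a homeobox factor of the posterior streak, by 2.24 (SE 0.46, limma adjusted p = 0.0157) and Lhx1, a LIM homeobox factor, by 2.01 (SE 0.44, limma adjusted p = 0.0177). Evx1 stood at 6.55 and 7.57 in PGC11.5, against 5.09 and 4.55 in EpiSC. Both rises were lost without EpiE3 (adjusted p = 0.112 for Evx1 and 0.0555 for Lhx1), that of Evx1 also without EpiT9 (0.0722) and that of Lhx1 also without PGC11.5 replicate 1 (0.0603).

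Signalling genes changed in both directions. Of 24 tested genes of the Nodal, FGF and Wnt pathways, 6 rose and 6 fell, with a median difference of 0.29. That is a share of 50%, beside 30.9% of all genes tested. The ligand Nodal stood at 6.76 and 6.65 in PGC11.5, against 9.18 and 9.56 in EpiSC, a difference of -2.67 (SE 0.29, limma adjusted p = 0.00252). Lefty1, a Nodal inhibitor and target, stood at 8.76 and 8.96 in PGC11.5, against 11.95 and 12.01 in EpiSC, a difference of -3.12 (SE 0.18, limma adjusted p = 0.000409). In both, each germ cell array lay below each EpiSC array. Lefty2, the neighbouring inhibitor, did not pass the test: EpiT9 at 10.29 lay between the PGC11.5 arrays, the higher of which was at 10.50, and EpiE3 was at 7.61. The Nodal receptor Acvr2b fell by 0.91, whereas Smad2, which carries the signal to the nucleus, rose by 1.63 and Furin, a protease that matures the ligand, by 0.95. Fgf15 was at least 3.17-fold lower in PGC11.5, and Spred1, an inhibitor of the MAP kinase cascade, fell by 1.82. The FGF targets Dusp4 and Etv5 rose by 1.51 and 1.54, the Wnt target Axin2 by 1.41 (limma adjusted p = 0.0459), and Cdx2, a caudal homeobox factor, by 2.35 (limma adjusted p = 0.0162). Cdx2 was detected on both PGC11.5 arrays, at 7.29 and 7.56, and on 1 EpiSC array, at 5.70 on EpiT9 and 4.45 on EpiE3, and without EpiE3 its call was lost (adjusted p = 0.0901). Calls of other members were lost too: those of Smad2 without EpiT9 or EpiE3, Spred1 without EpiT9, Acvr2b without EpiT9 or PGC11.5 replicate 1, Etv5 without PGC11.5 replicate 1 and Dusp4 without either PGC11.5 array (adjusted p between 0.0584 and 0.108). Furin and Axin2 were lost without EpiE3 or either PGC11.5 array (adjusted p between 0.0678 and 0.152), and Axin2 also with array weights (0.0504) and the authors' values (0.0507).

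Genes of DNA methylation changed in both directions: of 15 tested, 4 rose and 4 fell, and the median difference was -0.16. The share called was 53.3%, beside 30.9% of all genes tested. Beside Dnmt3b, the largest fall was that of Uhrf1, which brings the maintenance methyltransferase to replicated DNA. It stood at 8.42 and 8.79 in PGC11.5, against 11.72 and 11.61 in EpiSC, a difference of -3.05 (SE 0.21, limma adjusted p = 0.000667), with -1.07 from its other probe. Dnmt1, that maintenance enzyme, was at 9.57 and 9.86 in PGC11.5, against 8.75 and 8.79 in EpiSC, and rose by 0.94 (SE 0.22, limma adjusted p = 0.0235), a call lost without each array in turn (adjusted p between 0.0616 and 0.111). Enzyme and recruiting factor thus lay on opposite sides on all 4 arrays. Dnmt3l, a cofactor of de novo methylation, was not detected in PGC11.5, at 4.36 and 4.40, against 7.09 and 5.87 in EpiSC, and was at least 1.54-fold lower in PGC11.5 (limma adjusted p = 0.0187), a call lost under scaling (difference -0.31, adjusted p = 0.734), without EpiT9 (adjusted p = 0.0687) and without PGC11.5 replicate 1 (adjusted p = 0.0547). Dnmt3a, the other de novo enzyme, was detected on none of the 4 arrays. Tdg, a glycosylase of active demethylation, fell by 1.86 (SE 0.27, limma adjusted p = 0.00537), while Parp1, a sensor of DNA breaks, rose by 1.23, Mbd3, a NuRD subunit, by 1.10, and Gadd45b, a DNA damage response gene, by 1.59. The call of Mbd3 was lost without EpiT9 or PGC11.5 replicate 1 (adjusted p = 0.0526 and 0.0829), and that of Gadd45b also without EpiE3 (adjusted p between 0.0793 and 0.211).

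Of 26 tested genes of histone and arginine methylation, 5 rose and 4 fell, a share of 34.6% beside the 30.9% of all genes. The 5 rises were those of the Polycomb genes Phf19, Suz12, Pcgf2 and Cbx2 and of Setdb1, an H3K9 methyltransferase. No other Polycomb gene of the list was called higher. Phf19, an accessory subunit of the second Polycomb complex, stood at 8.16 and 7.72 in PGC11.5, against 6.09 and 5.75 in EpiSC, a difference of 2.02 (SE 0.36, limma adjusted p = 0.0104). Its call was lost without EpiT9 or EpiE3 (adjusted p = 0.0543 and 0.0646). Suz12, a core subunit of the same complex, rose by 1.06, Pcgf2 by 1.65, Cbx2 by 1.39, and Setdb1, which marks retroelements in PGCs, by 0.91. The call of Pcgf2 was lost without EpiT9, EpiE3 or PGC11.5 replicate 1 (adjusted p = 0.151, 0.168 and 0.0688), and those of Cbx2 and Setdb1 without each array in turn (adjusted p between 0.0658 and 0.177). The falls included Kdm6b, an H3K27 demethylase at least 3.27-fold lower in PGC11.5, and Kdm4c, an H3K9 demethylase at least 2.29-fold lower. Kdm4c was not called under scaling (difference -0.66, adjusted p = 0.371), without EpiT9 (0.0596) or without EpiE3 (0.104). Prmt5, the arginine methyltransferase active in PGCs, stood at 11.03 and 10.90 in PGC11.5 and at 10.70 and 10.52 in EpiSC and did not pass the test (limma adjusted p = 0.156).

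Imprinted genes are expressed from 1 parental allele, and PGCs are losing their imprints at this age. Of 13 tested, 3 rose and 3 fell, a share of 46.2% beside 30.9% of all genes tested. The median of -0.37 turned to 0.74 without PGC11.5 replicate 2. Phlda2, a growth-restraining placental gene, stood at 10.70 and 11.20 in PGC11.5, against 7.35 and 8.84 in EpiSC, a difference of 2.85 (SE 0.48, limma adjusted p = 0.00834). Peg3, a zinc finger gene, rose by 1.91, and Igf2r, the receptor that clears IGF2, by 1.30. The call of Peg3 was lost without EpiE3 (difference 1.37, adjusted p = 0.106) or PGC11.5 replicate 1 (0.0738), and that of Igf2r without each array in turn (adjusted p between 0.0585 and 0.0976). Gnas, a G protein subunit, stood at 7.87 and 7.41 in PGC11.5, against 10.87 and 9.80 in EpiSC, a difference of -2.70 (SE 0.39, limma adjusted p = 0.00544), and Snrpn, a splicing protein, fell by 1.84. Grb10, an inhibitor of insulin signalling, stood at 10.35 on PGC11.5 replicate 1 and 7.39 on replicate 2, against 12.71 and 11.82 in EpiSC. It fell by 3.39, a call lost without EpiT9 or EpiE3 (adjusted p = 0.147 and 0.084). Igf2, the fetal growth factor, split the same replicates more widely, at 13.07 and 9.98 in PGC11.5 and at 11.01 and 8.02 in EpiSC, so its groups overlapped. Of the 13 tested, 6 were at least 2-fold higher on PGC11.5 replicate 1 than on replicate 2 and none the reverse.

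Glycolysis genes were lower in PGC11.5. Of 22 with a probe, 20 were tested, 16 fell and none rose, a share of 80% beside 30.9% of all genes tested. The median difference was -2.10. It was -1.43 under scaling, where 14 fell and the median over all genes was 0.38. Slc2a1 (GLUT1), the glucose transporter, averaged 9.08 ± 0.11 in PGC11.5 and 13.08 ± 0.44 in EpiSC (SD, n = 2 each) and fell (SE 0.23, limma adjusted p = 0.000432). Ldha, the subunit of lactate dehydrogenase that favours lactate, stood at 10.05 and 9.39 in PGC11.5, against 13.97 and 13.92 in EpiSC, a difference of -4.22 (SE 0.23, limma adjusted p = 0.000353). Both stood about 4 log2 units lower on the germ cell arrays, and all 4 arrays detected them. Tpi1, triosephosphate isomerase, stood at 10.11 and 9.25 in PGC11.5, against 13.59 and 13.23 in EpiSC, a difference of -3.73 (SE 0.29, limma adjusted p = 0.001), while its other probes gave -0.91 and -4.75. Aldoc, an aldolase, fell by 4.37 and was detected on 1 PGC11.5 array. Hexokinase Hk2, the entry enzyme, stood at 9.02 and 9.02 in PGC11.5, against 11.84 and 11.77 in EpiSC, a difference of -2.78 (SE 0.17, limma adjusted p = 0.000523).

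Other genes of the pathway fell too. The transporter Slc2a3 (GLUT3) fell by 2.69, and Pdk1, the kinase that closes the mitochondrial entry of pyruvate, by 1.57. Gapdh, of the middle of the pathway, fell by 1.29 (13.13 and 13.09 in PGC11.5, 14.49 and 14.31 in EpiSC), and Pkm, pyruvate kinase, by 0.93. The lactate exporter Slc16a3 was at least 2.83-fold lower in PGC11.5, and was not called under scaling (difference -1.18, adjusted p = 0.0849). Pgk1, phosphoglycerate kinase, was read by a dim probe, not detected in PGC11.5 at 4.85 and 5.33 and at 5.80 and 5.75 in EpiSC, and did not pass the test. Without PGC11.5 replicate 1, 15 of these genes were called lower and none higher.

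**Figure D3:**
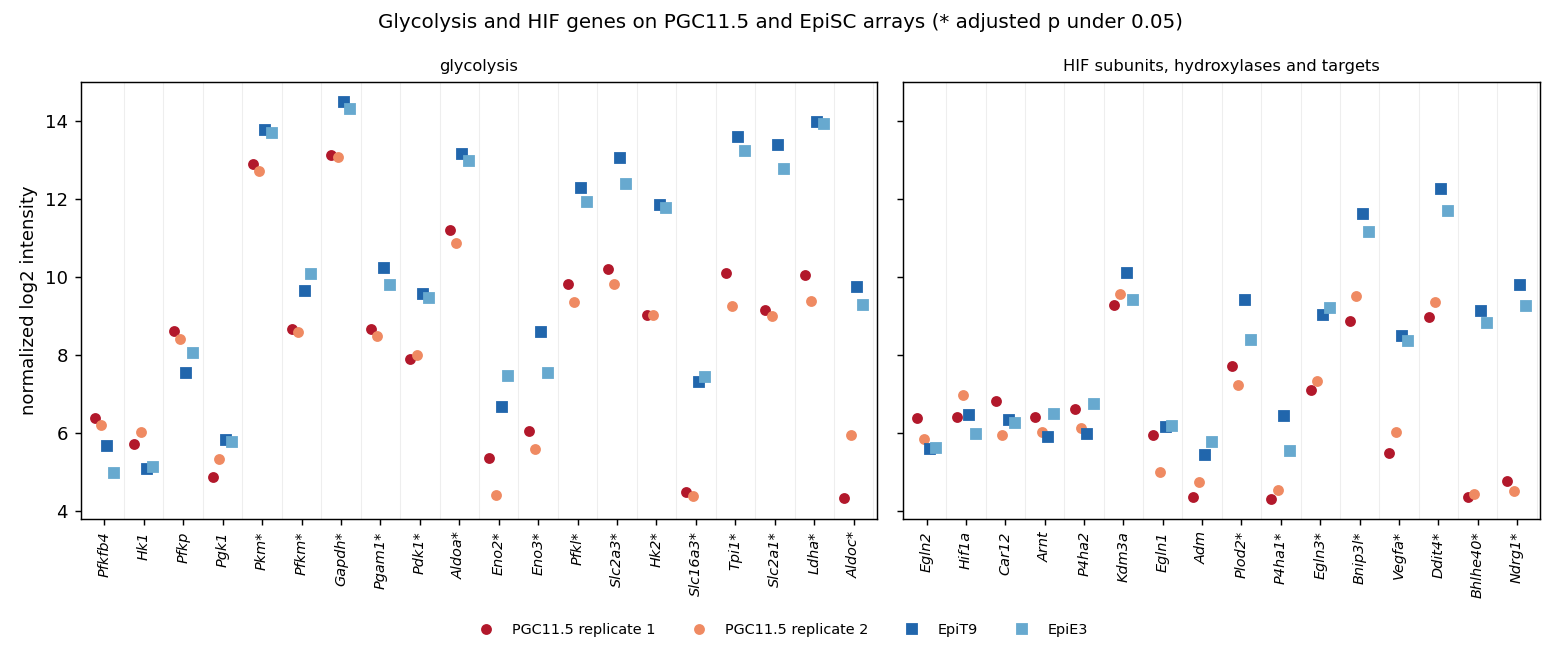
Normalized log2 intensity (vertical axis) of each tested gene of glycolysis and of the HIF list on the PGC11.5 arrays (red circles) and the EpiSC arrays (blue squares), with called genes starred. Slc2a1, Ldha and Ndrg1 show both red points below both blue ones, and those of Hif1a overlap.

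Hif1a, the oxygen-regulated factor named in the title of the series, did not differ beyond the spread. It stood at 6.41 and 6.96 in PGC11.5 and at 6.46 and 5.97 in EpiSC, a difference of 0.47 (SE 0.40, limma adjusted p = 0.393) with overlapping groups. Its partner Arnt stood at 6.42 and 6.02 in PGC11.5 and at 5.88 and 6.47 in EpiSC. HIF1 is controlled mainly through the stability of its protein, which these arrays do not measure. Of 16 tested genes of HIF subunits, hydroxylases and targets other than glycolysis, 8 fell and none rose. That is a share of 50%, beside 30.9% of all genes tested. The median was -1.24 and shrank to -0.07 under scaling, where 7 fell and the median over all genes was 0.38. With no detection filter the median was -0.34. Ndrg1, a differentiation gene induced in hypoxia, was not detected in PGC11.5, at 4.76 and 4.50, against 9.78 and 9.26 in EpiSC, and was at least 12.7-fold lower in PGC11.5 (limma adjusted p = 0.000907). Bhlhe40, a repressor induced by HIF, was at least 8.69-fold lower. Ddit4, an inhibitor of mTOR, stood at 8.98 and 9.37 in PGC11.5, against 12.25 and 11.69 in EpiSC, a difference of -2.80 (SE 0.25, limma adjusted p = 0.00137).

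Vegfa, the angiogenic factor, stood at 5.48 and 6.03 in PGC11.5, where 1 array detected it, against 8.48 and 8.36 in EpiSC. Its difference of -2.67 (SE 0.36, limma adjusted p = 0.00456) was -0.59 by its other probe, and the call was lost without EpiT9 (adjusted p = 0.0512). The mitophagy receptor Bnip3l fell by 2.18 and the hydroxylase Egln3 fell by 1.90. Without PGC11.5 replicate 1, 6 genes of the list were called lower and none higher, and without EpiT9, 5 were.

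Of 69 tested respiratory chain genes, 13 rose and 2 fell, a share of 21.7% beside 30.9% for all genes, and the median was 0.24. Cox7a1, the heart and muscle type of a cytochrome oxidase subunit, averaged 10.11 ± 0.25 in PGC11.5 and 7.57 ± 0.61 in EpiSC (SD, n = 2 each), a difference of 2.54 (SE 0.34, limma adjusted p = 0.00457). Atp5g1, a subunit of ATP synthase, rose by 1.57 and Ndufa6, of complex I, by 1.02, and Atp5g1 lost its call without PGC11.5 replicate 2 (adjusted p = 0.0526). Ribosomal protein genes gave 6 rises and 7 falls among 52 tested, a share of 25% beside the same 30.9%, with a median of 0.11.

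Cell cycle genes gave 7 rises and 5 falls among 23 tested, with a median of -0.06. That is a share of 52.2%, beside 30.9% of all genes tested. Cdkn2a, the locus of the p16 and p19 inhibitors, stood at 7.76 and 8.21 in PGC11.5 and was not detected in EpiSC, at 4.69 and 4.39, hence at least 8.2-fold higher (limma adjusted p = 0.00252). Ccnd1, cyclin D1, stood at 8.53 and 7.36 in PGC11.5, against 11.05 and 10.93 in EpiSC, a difference of -3.04 (SE 0.38, limma adjusted p = 0.00374), with -3.27 and -1.29 from its other probes. The inhibitor gene was thus higher and the cyclin gene lower on every germ cell array. Cdk2 fell by 1.26 and Cdk1 fell by 1.22, both kinases of the cycle, and E2f1, a factor of S phase entry, rose by 1.09. Cdk1 lost its call without EpiT9 or PGC11.5 replicate 1 (adjusted p = 0.0723 and 0.0669) and E2f1 without PGC11.5 replicate 1 (0.0729). Cdkn1a (p21) fell by 1.40, but the call was lost without EpiT9, EpiE3 or PGC11.5 replicate 1, and 1 of its other probes read 0.19.

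Epithelial genes gave 5 falls and no rise among 14 tested, a share of 35.7%. Of all genes tested, 30.9% were called in either direction and 16.9% lower. The median of the epithelial list, -1.22, turned to 0.14 under scaling, where the median over all genes was 0.38. Beside Krt8, the tight junction genes Cldn6 and Cldn4 and the keratins Krt18 and Krt19 fell. Krt8, Krt18 and Cldn6 also belong to the primed list and are counted among its falls. Cldn6 stood at 5.34 and 6.22 in PGC11.5, where 1 array detected it, and at 8.53 on EpiT9 and 11.27 on EpiE3, a difference of -4.12 (SE 0.84, limma adjusted p = 0.015), and its call was lost without PGC11.5 replicate 1 (adjusted p = 0.0621). Cldn4 was at least 4.36-fold lower in PGC11.5. Krt18 was not called without EpiE3 (adjusted p = 0.0604), and Krt19 not without EpiT9 (0.0528) or under scaling (difference -0.47, adjusted p = 0.571). Cdh1 (E-cadherin), the adhesion protein of epithelia that PGCs also carry, stood at 6.38 and 7.77 in PGC11.5 and at 7.01 and 9.05 in EpiSC, and the groups overlapped. Among 8 tested mesenchymal genes only Snai1 was called, a share of 12.5% beside 30.9% of all genes. It was not detected in PGC11.5, at 4.28 and 4.42, and stood at 5.68 and 5.50 in EpiSC. Those EpiSC levels lay below the dimmest detected signal of PGC11.5 replicate 1, 6.08, and around that of replicate 2, 5.63. No lower bound can therefore be given for Snai1. Its direction turned under scaling (0.58). The median of the list was -0.66, and 0.34 under scaling, beside 0.38 over all genes.

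Other large falls were in genes outside these lists. Upp1, the uridine phosphorylase of pyrimidine salvage, was not detected in PGC11.5, at 4.62 and 5.34, and stood at 12.03 and 12.06 in EpiSC, at least 73.2-fold lower in PGC11.5 (limma adjusted p = 0.000184), and its other probes gave -6.80 and -5.42. Trh, the precursor of thyrotropin-releasing hormone, stood at 6.95 and 7.29 in PGC11.5, against 13.75 and 14.14 in EpiSC, a difference of -6.82 (SE 0.22, limma adjusted p = 6.49e-05). Chac1, which breaks down glutathione, was at least 39.2-fold lower. All 3 were high in both EpiSC lines and low or not detected on both germ cell arrays. Igfbp2, a binding protein of insulin-like growth factors, fell by 5.51, and Prps1, which makes the precursor of nucleotides, fell by 5.04. Bcat1, a transaminase of branched-chain amino acids, and Gja1 (connexin 43), a gap junction protein, each fell by 4.94. The other probes of Bcat1 gave smaller differences, -2.15 and -2.40. On the germ cell arrays Gja1 was higher on replicate 1 than on replicate 2. Klf9, a transcription factor, Car4, a carbonic anhydrase, and Chst1, a sulfotransferase, were not detected in PGC11.5 and were at least 16.4-fold, 15.4-fold and 18.5-fold lower there. Psg23, a pregnancy-specific glycoprotein, fell by 5.09 and Tubb6, a beta-tubulin, fell by 4.85, each detected on 1 PGC11.5 array. Ap3b2, a subunit of a vesicle adaptor, rose by 5.44 and stood at 10.88 and 10.41 in PGC11.5, against 5.65 and 4.75 in EpiSC.

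**Figure D4:**
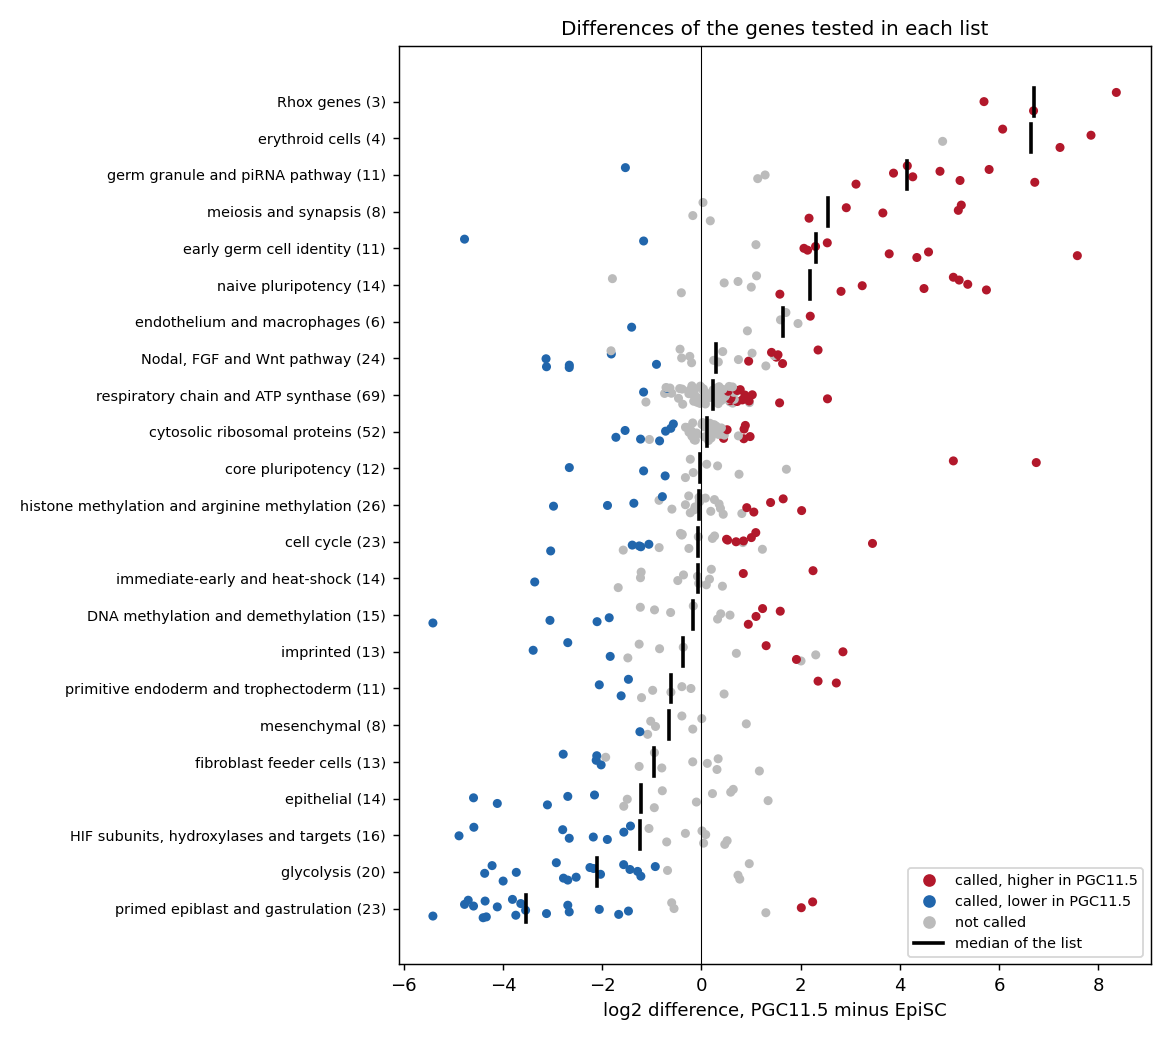
Log2 difference, PGC11.5 minus EpiSC (horizontal axis), of every tested gene in each list with at least 3 tested genes, the number in brackets; red and blue points are called higher and lower in PGC11.5, grey ones are not called, and black bars are medians. The germ granule list has its median at 4.15 and the primed list at -3.55.

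Markers of other cells were examined on the same arrays. Of 24 genes of gonadal somatic cells, which surround PGCs in the genital ridge, 0 and 2 were detected on the PGC11.5 arrays, against 4 and 1 on the EpiSC arrays, and none was tested. Their summed normalized intensity was 725 and 660 in PGC11.5 and 611 and 558 in EpiSC, and their median log2 level 4.68 and 4.58 against 4.46 and 4.48. The dimmest detected probe was at 6.08 and 5.63 on the PGC11.5 arrays, against 4.86 and 5.04 on the EpiSC arrays. These detection counts are therefore not alike, and low levels in PGC11.5 cannot be told from absence. Erythroid genes were detected more often on the PGC11.5 arrays than on the EpiSC arrays. Hbb-y, the embryonic beta-like globin, stood at 14.37 on PGC11.5 replicate 1 and 10.09 on replicate 2, against 4.43 and 4.33 in EpiSC, where it was not detected. It was at least 156-fold higher in PGC11.5 (limma adjusted p = 0.00641), and at least 35.4-fold higher by replicate 2 alone. Hba-x, the embryonic alpha-like globin, stood at 13.88 and 7.22 in PGC11.5, against 4.43 and 4.53 in EpiSC, at least 48.6-fold higher (limma adjusted p = 0.0489) and at least 4.83-fold higher by replicate 2 alone. Its call was lost without EpiT9 or EpiE3 (adjusted p = 0.172 and 0.166), with the mean of probes (0.0586), with no background correction (0.091) and with the 4 arrays normalized alone (0.0625). Both globins were above EpiSC on both germ cell arrays but replicate 1 lay far above replicate 2. Hbb-bh1, at 12.43 and 6.22 in PGC11.5 and 4.60 and 4.33 in EpiSC, did not pass the test (SE 1.74, limma adjusted p = 0.0761). Of the 13 erythroid genes, 8 and 4 were detected on the PGC11.5 arrays, against 1 and 1 on the EpiSC arrays. Without replicate 1 the median difference of the 4 tested was 3.81, against 6.65 with it.

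Replicate 1 was also at least 2-fold higher than replicate 2 for 8 of 13 tested fibroblast genes, 5 of 6 of endothelium and macrophages, 4 of 8 mesenchymal and 7 of 14 immediate-early and heat-shock genes, and for none of the early germ cell, germ granule or meiosis genes. Replicate 2 was at least 2-fold higher than replicate 1 for 2 of 11 early germ cell, 1 of 11 germ granule and 3 of 8 meiosis genes. Over all genes tested, 434 were at least 2-fold higher on replicate 1 and 552 on replicate 2. Of those 13 fibroblast genes 4 fell and none rose relative to EpiSC, a share of 30.8% beside the 30.9% of all genes. The summed normalized intensity of 25 fibroblast genes was 5547 and 1239 in PGC11.5, against 6803 and 3052 in EpiSC. Acta2, smooth muscle actin, stood at 11.55 and 7.01 in PGC11.5 and at 10.88 and 8.03 in EpiSC, and Col1a1, a collagen, at 8.17 and 4.45 in PGC11.5 and at 5.64 and 4.65 in EpiSC. Egr1, an immediate-early factor, stood at 10.37 and 6.94 in PGC11.5, against 11.94 and 12.09 in EpiSC, and fell by 3.36 (limma adjusted p = 0.0403), a call lost without EpiT9 or EpiE3. Plvap, an endothelial gene, rose by 2.19 at 8.78 and 6.90 in PGC11.5, against 5.35 and 5.94 in EpiSC, and was not called without replicate 1, EpiT9 or EpiE3 (adjusted p = 0.0832, 0.196 and 0.119) or with no background correction (0.056). The part of other cells in these differences was not tested. Hsp90aa1, a stress-inducible chaperone, did not follow replicate 1: it stood at 8.26 and 8.44 in PGC11.5, against 6.15 and 6.06 in EpiSC, and rose by 2.25 (SE 0.32, limma adjusted p = 0.00534).

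**Figure D5:**
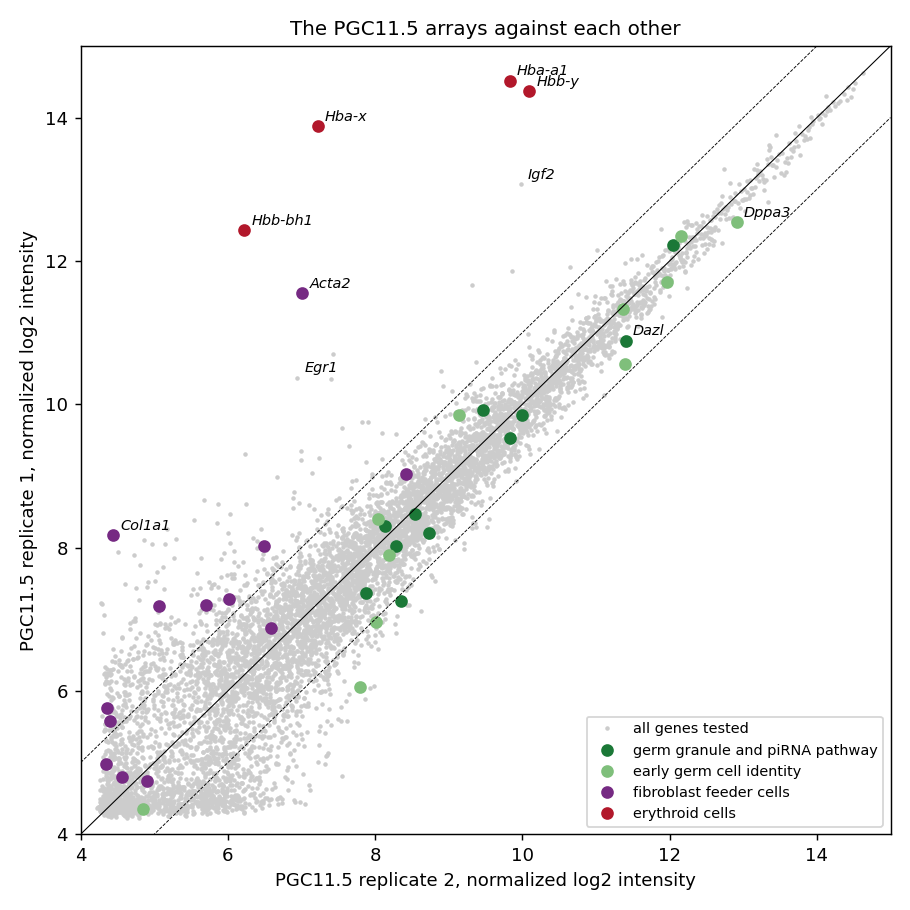
Normalized log2 intensity of every tested gene on PGC11.5 replicate 1 (vertical axis) against replicate 2 (horizontal axis), with the line of equality, dashed lines at 2-fold and coloured lists. No gene of the early germ cell or germ granule lists lies above the upper dashed line, 3 lie below the lower one, and globins, Acta2 and Col1a1 lie above the upper one, as Hba-x at 13.88 on replicate 1 and 7.22 on replicate 2.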

How the data were processed

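The data are probe intensities from mouse Illumina bead arrays, with 25697 probes each. Per the file headers, the authors' non-normalized table gives the unlogged intensity of a probe and its detection p-value on each array. A further table, deposited by the authors with normalized log2 values, was used as an alternative only. The submitters' processing notes name BeadStudio 3.2, RMA and lumi, without their order. The genome build of the probes, and which of the 2 amplification protocols described in the labels each array received, were unstated (not given in the sources used here).

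The platform annotation gave 1 gene for 23978 probes and no gene for 1719, and symbols of 23962 probes were updated by Entrez ID, for 16593 genes in all, of which 4777 have more than 1 probe. The neqc function of limma 3.58.1 (R 4.3.3) corrected the 14 arrays for background from the detection p-values, added an offset of 16, and quantile normalized them to log2 values. Each gene took the probe that was brightest on average over the 4 arrays. Of 1962 genes with at least 2 detected probes, 619 were called by the brightest, and in 50 of these (8.1%) the next brightest had the opposite sign. Both probes were called in 319 genes, and 5 of these had opposite calls. The model was fitted to the 4 arrays, with EpiT9 and EpiE3 as the 2 samples of EpiSC, and had 2 residual and, after moderation with a trend, 6.60 total degrees of freedom. Each SE is limma's moderated standard error. The number of arrays limits the precision. The procedure was tested on data simulated with independent normal noise of the fitted variances. Such data hold no shift shared by groups of genes, so they cannot speak to the split between the PGC11.5 replicates. Tables were made with pandas 2.3.3 and numpy 2.4.6 in Python 3.11.15, and figures with matplotlib 3.10.9.

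The comparison, its gene lists and the genes named were chosen with earlier results of these data known. Some lists share members, such as Dppa5a, Lin28a, Fgf8 and Krt8, which are counted in each, so the counts of lists are not independent. The naming rule took the 14 largest rises and 14 largest falls among genes called with at least a 2-fold difference, no overlap between groups and detection on both arrays of the higher group (clone, locus, predicted and Riken symbols aside), 25 fixed genes of the germline, pluripotency and hypoxia, and the 4 largest calls in each list. The text names part of these. Other members of a list were named after their values were seen. Kit, Gtsf1 and T, fixed genes, have no probe listed. As alternatives, the authors' values, uncorrected background, scaling, normalization of the 4 arrays alone, other filters and choices of probe, array weights, fits to all 14 arrays, stricter thresholds and leaving out each array were tried.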

Additional observations from a re-analysis of the deposited data

How the results depend on the processing

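The 2332 calls (1059 higher, 1273 lower) became 4761 (2149 and 2612) in a fit to all 14 arrays with EpiSC as 1 group and 5100 (2332 and 2768) with EpiT9 and EpiE3 apart, fits whose spread comes mostly from other cells. They became 1358 (637 and 721) with no detection filter, which tests more genes, and 744 (340 and 404) at an adjusted p under 0.01. With no detection filter some genes named in the text lost their calls (limma adjusted p between 0.0504 and 0.19). They were Nanog, Hba-x, Plvap, Egr1, Dnmt3l, Pcgf2, Kdm4c, Grb10, Snai1, Sox17 and Hoxa13. The same held for Ifitm1, Ifitm3, Hormad2, Evx1, Furin, Axin2, Gadd45b, Cbx2, Setdb1 and Krt19. Leaving out each array in turn gave 900 to 1831 calls, 453 to 725 of them higher and 447 to 1106 lower. Such fits have 1 residual degree of freedom and assume that a lone array varies like its counterpart. Scaling in place of quantile normalization gave 2023 calls, 1138 higher and 885 lower, so the share of higher calls was 56.3% against 45.4%, and the median over all genes was 0.38 against -0.10. Snai1 (0.58) and Sox17 (0.16) turned direction under scaling, without passing the test. The cause was not tested. Of the 100 named genes that were called, 82 kept their call in all 11 alternatives of processing and fit, and 67 also when each array was left out. Of 44 further called list members given by name, 10 lost their call with no detection filter and 9 to 16 when an array was left out. The medians of the early germ cell, germ granule, meiosis and naive lists were above 0, and those of the primed, glycolysis and HIF lists below 0, as reported and in the 15 alternatives run on them. With no detection filter the germ granule median was 1.13 against 4.15, meiosis 0.17 against 2.54 and naive 1.15 against 2.20. The primed median was then -2.67 against -3.55, glycolysis -1.80 against -2.10 and HIF -0.34 against -1.24. Under scaling the medians of the epithelial (0.14), mesenchymal (0.34) and primitive endoderm and trophectoderm (0.13) lists were above 0. They lay below the 0.38 of all genes, and the last was 0.27 without PGC11.5 replicate 2. Sox2 was called in both fits to all 14 arrays (adjusted p = 0.0157 and 0.00496) and Pou5f1 in the second (adjusted p = 0.0437). No paired analysis was possible because EpiT9 and EpiE3 are 2 lines with 1 array each, so they share fewer than 2 replicate numbers with PGC11.5. The 2 arrays per group and the higher detection limit on the PGC11.5 arrays limit what can be called for dim genes.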

Other observations

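Among the genes tested, those of the X chromosome were called lower in PGC11.5 more often than those of any autosome. Of 252 X-linked genes tested, 34 were called higher (13.5%) and 76 lower (30.2%), with a median difference of -0.51, while on the 19 autosomes between 12.7% and 21.4% of genes were called lower and medians ran from -0.25 to 0.03. The X median was -0.52 for PGC11.5 replicate 1 and -0.38 for replicate 2, each set against the mean of the EpiSC arrays. Taken the other way, as each EpiSC line minus the mean of PGC11.5, the X median was 0.60 for EpiT9 and 0.45 for EpiE3. Under scaling the X median of PGC11.5 minus EpiSC was 0.14 beside 0.38 over all genes, with 17.1% of X-linked genes called lower beside 11.7% of all genes. With no detection filter the shift of the median was absent, at 0.025 for 609 X-linked genes beside 0.035 over all genes. In that setting 6.9% of X-linked genes were called lower beside 4.3% of all genes. The Rhox genes and Pim2, Prps1 and Timp1 lie on this chromosome, the Rhox genes among its rises and the others among its falls, that of Timp1 lost without EpiE3 (adjusted p = 0.0554).

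The lines differed in sex-linked transcripts. Eif2s3y, on the Y chromosome, stood at 6.88 and 8.02 in PGC11.5, against 4.35 on EpiT9, where it was not detected, and 8.85 on EpiE3. The brighter probe of Xist, the RNA that coats an inactive X chromosome, was detected on EpiT9 only, at 8.53, and read 5.41 and 5.26 on the PGC11.5 arrays and 4.33 on EpiE3.

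Amn, an endoderm gene, was detected on both PGC11.5 arrays, at 6.88 and 7.60, and on neither EpiSC array, at 4.46 and 4.58, and was at least 4.89-fold higher in PGC11.5 (limma adjusted p = 0.00544). Its call was lost without EpiT9 (adjusted p = 0.0547). Of 38 Hox genes with a probe only Hoxa13, a factor of the distal limb and urogenital tract, was tested. Of the 37 not tested, 7 were detected on 1 PGC11.5 array, 5 on 1 EpiSC array and 25 on none. Those 7 all read higher on PGC11.5 replicate 1 than on replicate 2. Hoxc9 stood at 7.31 and 4.85 in PGC11.5, against 4.32 and 4.27 in EpiSC. Among the other 5, Hoxb1 read 7.62 on EpiT9 and 4.43 on EpiE3. Hoxa13 stood at 6.48 and 6.23 in PGC11.5, against 4.95 and 5.18 in EpiSC (difference 1.29, limma adjusted p = 0.0329). Its call was lost without PGC11.5 replicate 1, EpiT9 or EpiE3 and under scaling (limma adjusted p = 0.0607). The call was also lost with the authors' values (0.0514) and with no detection filter (0.19).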
